A study of Homo sapiens with 6 samples.

Results

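Transcripts of the 3 Tribbles genes, TRIB1, TRIB2 and TRIB3, were examined in the RNA-seq counts of EndoC-βH1 cells, among 60671 gene identifiers in all. The genes were chosen by name as a family, with their CPM (counts scaled for library size) in 3 DMSO and 3 AZD7762 samples already known, so their differences between the groups are given as a description. Fitted values from the model across all genes are given for them, and nothing is read from whether that model called them. EndoC-βH1 is an established human β cell line, taken here as wild type only in that the sample titles name no genetic edit. The 3 control samples received DMSO, the vehicle, and the other 3 received 1 µM AZD7762, a competitive inhibitor of CHEK1 and CHEK2. In the paper's kinase assay, 1 µM AZD7762 also inhibited other kinases. In both groups the cells spent 1 h in 0.5 mM glucose, followed by 1 h of stimulation at either 0.5 or 20 mM glucose, with DMSO or compound present throughout. Which of the 2 glucose concentrations, and which of 2 library kits, a sample had is not given in the sources used here, so a difference in either between the groups cannot be told apart from treatment.

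The libraries held between 20486391 and 29402440 counts on genes, and 3 counts, the floor of detection used here, corresponded to 0.102 to 0.146 CPM, a limit that covers counting error only. All 14 β cell markers examined passed the filter on low counts. Of these, 1, the insulin gene activator MAFA, was called, where 0.708% of all genes tested were. MAFA rose from 17.3 ± 3.41 to 40.4 ± 4.25 CPM with AZD7762 (SD, n = 3, adjusted p = 0.000133, edgeR). Of 17 markers of other cell types, 16 could be matched to a gene identifier and PECAM1 could not. Of the 16, 8 passed the filter and 0 were called by edgeR. The highest was SST (somatostatin, the hormone of islet δ cells), at 215 CPM for DMSO and 254 CPM for AZD7762. It was followed by the duct gene KRT19 at 26.1 and 27.1 CPM, the acinar gene CPA1 at 21.8 and 25.7, the δ cell factor HHEX at 20.4 and 17.9 and the collagen gene COL1A1 at 12.1 and 12.5 CPM. The groups did not overlap for SST and CPA1, both higher with AZD7762 (adjusted p = 0.16 and 0.308, edgeR). The share of all genes with such a rise was not computed, so nothing is read from this. The acinar genes PRSS1 and CELA3A were at 0 in all libraries, and CD68 and VWF at or below 4 counts over all 6. The study's methods describe in vitro replicates in general as independent, but the labels do not say whether these samples came from separate cultures. If they did not, p-values measure only the spread between these samples, which may be technical.

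Tribbles proteins are pseudokinases. They have the fold of a protein kinase but little or no catalytic activity, and they work as scaffolds. A short motif in their C-terminal tail binds the ubiquitin ligase COP1, which TRIB1 and TRIB2 bring to the transcription factor C/EBPα so that it is degraded, and a neighbouring motif binds the MAP kinase kinase MEK1. TRIB3 is known for binding AKT, the kinase downstream of the insulin receptor, and is a target gene of the stress factors ATF4 and CHOP (encoded by DDIT3). In β cells, raised TRIB3 has been linked to impaired insulin secretion and to cell death under stress.

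The 3 genes encode proteins of similar size, 372 residues for TRIB1, 343 for TRIB2 and 358 for TRIB3, by the coding lengths of their canonical transcripts. All 3 passed the filter on low counts, and their lowest counts in any library were 663 for TRIB1, 103 for TRIB2 and 869 for TRIB3. With AZD7762, TRIB1 and TRIB2 were lower than with DMSO by a similar proportion, to 0.702 and 0.739 of the mean with DMSO, whereas the mean of TRIB3 was 1.01 times that with DMSO. In TRIB1 and TRIB2 the 3 AZD7762 samples lay below the 3 DMSO samples, and in TRIB3 the groups overlapped. Mitochondrial genes took 1.57%, 2.13% and 2.12% of the counts in the DMSO samples and 2.26%, 2.28% and 2.63% in the AZD7762 samples, so this share too did not overlap between the groups, and its part in the differences of TRIB1 and TRIB2 was not tested.

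TRIB1 (ENSG00000173334) lies on the plus strand of chromosome 8 of GRCh37, from 126442600 to 126450645, and its canonical transcript has 3 exons and 3596 bases. With DMSO, replicates 1, 2 and 3 had 50.5, 50.7 and 44.1 normalized CPM. With AZD7762 they had 36.6, 31.5 and 33.9 normalized CPM. The lowest DMSO sample, replicate 3, was above the highest AZD7762 sample, replicate 1. The mean over 3 samples was 48.4 ± 3.72 (SD) for DMSO against 34.0 ± 2.54 for AZD7762, and the fitted log2 fold change was -0.51 (standard error 0.0791). Of all 17649 genes tested, 2.16% had a lower log2 fold change than TRIB1.

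TRIB2 (ENSG00000071575) lies on the plus strand of chromosome 2 of GRCh37, from 12857036 to 12882860. Its canonical transcript has 3 exons and 4344 bases, and the microRNA gene MIR3125 sits in an intron on the same strand, sharing 0 bases with the exons of TRIB2. With DMSO, replicates 1, 2 and 3 had 6.91, 6.62 and 6.23 normalized CPM. With AZD7762 they had 4.77, 4.99 and 4.83 normalized CPM. All 3 AZD7762 samples were below the lowest DMSO sample, and they lay close together. The mean over 3 samples was 6.59 ± 0.339 (SD) for DMSO against 4.86 ± 0.113 for AZD7762, with a fitted log2 fold change of -0.44 (standard error 0.112). The spread between the AZD7762 samples, 2.33% of their mean, was smaller than the counting error of 9.85% expected for a count of 103, the lowest TRIB2 count, so the SD of TRIB2 says little about variation beyond counting error. Of all genes tested, 3.27% had a lower log2 fold change than TRIB2.

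TRIB3 (ENSG00000101255) lies on the plus strand of chromosome 20 of GRCh37, from 343479 to 378203, and its canonical transcript of 2356 bases, in 4 exons, begins at 361404. With DMSO, replicates 1, 2 and 3 had 44.0, 39.0 and 49.2 normalized CPM. With AZD7762 they had 49.1, 43.3 and 40.8 normalized CPM. The lowest and the highest of the 6 samples were both DMSO samples, replicates 2 and 3. The means were 44.1 ± 5.07 and 44.4 ± 4.25 (SD, n = 3 in each group), and the fitted log2 fold change of 0.01 was smaller than its standard error of 0.0924. It became -0.07 without DMSO replicate 2 or without AZD7762 replicate 1, and -0.02 when libraries were scaled by their totals alone.

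**Figure D1:**
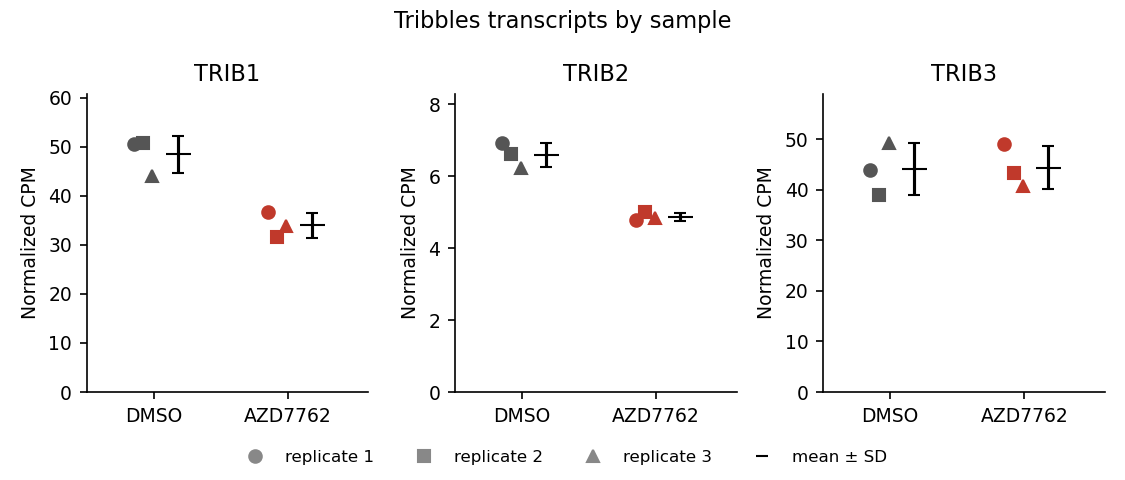
Normalized CPM (vertical axes, from 0) of TRIB1, TRIB2 and TRIB3 in the 3 DMSO (grey) and 3 AZD7762 (red) samples. Marker shapes give the replicate, and the bar beside each group gives its mean ± SD (n = 3). For TRIB1 and TRIB2 all AZD7762 samples lie below all DMSO samples, from 31.5 to 36.6 against 44.1 to 50.7 and from 4.77 to 4.99 against 6.23 to 6.91 CPM, and for TRIB3 the groups overlap.

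Over all 17649 genes, edgeR's quasi-likelihood test called 125 (0.708%) once p was adjusted by the Benjamini-Hochberg method, with 0.05 as the threshold, and 62 of them (0.351%) were lower with AZD7762. Of the 3 Tribbles genes, 1, TRIB1, was among the 62. In 2 of the 3, TRIB1 and TRIB2, the groups did not overlap and AZD7762 was lower, which held for 8.25% of all genes tested. Since the family was chosen with this contrast known, nothing is read from these counts. Over all genes tested, the log2 fold change had a median size of 0.0906, and 3.48%, 5.24% and 90.9% of genes had a log2 fold change at least as large in size as that of TRIB1, TRIB2 and TRIB3.

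**Figure D2:**
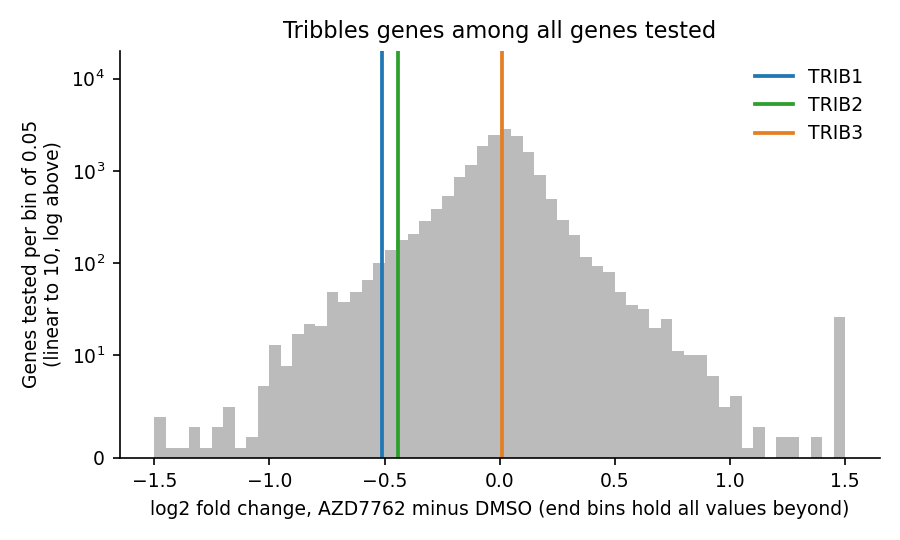
Histogram of the fitted log2 fold change (AZD7762 minus DMSO, horizontal axis) of the 17649 genes tested, in bins of 0.05, with the number of genes per bin on a vertical axis that is linear to 10 and logarithmic above. Lines mark TRIB1 at -0.51, TRIB2 at -0.44 and TRIB3 at 0.01. The first and last bins hold all values beyond the axis.

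The order of levels among the 3 genes was compared per length, as normalized CPM divided by the length of all annotated exons in kilobases. With DMSO the level was 13.4 ± 1.54 CPM per kb for TRIB3, 11.8 ± 0.907 for TRIB1 and 1.44 ± 0.0743 for TRIB2 (SD, n = 3). With AZD7762 it was 13.5 ± 1.29 for TRIB3, 8.29 ± 0.619 for TRIB1 and 1.06 ± 0.0248 for TRIB2. By this length TRIB3 and TRIB1 were neighbours that did not separate with DMSO, where TRIB1 was the higher of the pair in replicate 2, but they did not overlap with AZD7762, where TRIB3 lay between 12.4 and 14.9 and TRIB1 between 7.69 and 8.92 CPM per kb. The order with DMSO depended on the length used. Per length of the longest annotated transcript, TRIB3 was above TRIB1 in all 3 DMSO samples, from 16.6 to 20.9 against 12.3 to 14.1 CPM per kb. TRIB2 was the lowest in every library by either length. Within libraries, the log2 ratio of TRIB2 to TRIB1 was -3.03 ± 0.0563 with DMSO and -2.96 ± 0.140 with AZD7762, and that of TRIB1 to TRIB3 was -0.18 ± 0.271 and -0.70 ± 0.103. The TRIB2 to TRIB1 ratio thus overlapped between the groups, from -3.09 to -2.98 and from -3.09 to -2.81 on the log2 scale. Among all genes tested, 21.2% had a higher level per length than TRIB3 with DMSO, 23.7% than TRIB1 and 69.0% than TRIB2.

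Of the summed level of the family per length, TRIB3 made up 50.2% ± 4.59 with DMSO and 59.0% ± 1.69 with AZD7762, and TRIB1 44.4% ± 4.26 and 36.3% ± 1.59 (SD, n = 3). TRIB2 contributed 5.42% ± 0.329 and 4.68% ± 0.422. With the longest transcript as the length, the share of TRIB3 was 55.4% ± 4.53 and 64.0% ± 1.62. The sum itself ranged from 25.7 to 27.2 CPM per kb over the DMSO samples and from 21.7 to 24.9 over the AZD7762 samples. In bulk samples a lower level can reflect fewer cells with the transcript or less of it in each cell, which cannot be told apart.

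**Figure D3:**
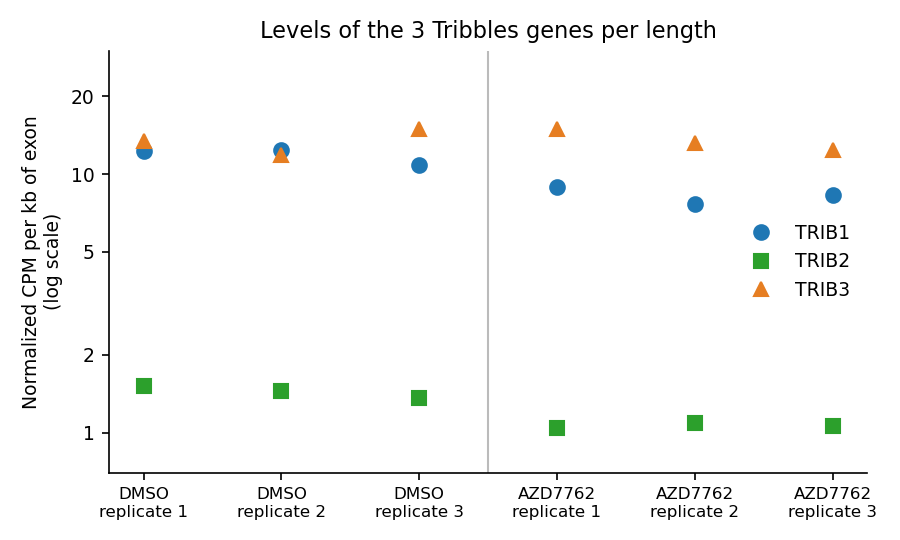
Normalized CPM per kilobase of annotated exon (vertical axis, log scale) of TRIB1 (blue circles), TRIB2 (green squares) and TRIB3 (orange triangles) in each of the 6 libraries, DMSO left of the line and AZD7762 right of it. TRIB2 lies between 1.04 and 1.51, and by this length TRIB1 and TRIB3 lie close together in the DMSO libraries and apart in the AZD7762 libraries.

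The patterns of TRIB1 and TRIB2 over the 6 samples ran together (Pearson's r = 0.944 on log2 normalized CPM), whereas r was -0.115 between TRIB1 and TRIB3 and -0.160 between TRIB2 and TRIB3. The points of each r are 6 libraries in 2 treatment groups, so a gene that differs between the groups shares that step with any other such gene. Among the 13806 genes whose mean log2 CPM reached 1, TRIB1 was most like EEF2K (r = 0.9958), the kinase of elongation factor 2, followed by VANGL1, MACO1, C6orf62 and SPC25. These 5 genes had smaller log2 fold changes than TRIB1, from -0.09 for VANGL1 to -0.25 for EEF2K. TRIB2 was most like the zinc finger gene ZNF266 (r = 0.9961), followed by TRAM2, PTGS2, ARHGAP30 and ID2. Of these, PTGS2, which encodes cyclooxygenase 2, had means of 27.0 and 16.4 CPM, and ID2, an inhibitor of basic helix-loop-helix factors, 304 and 220 CPM, for DMSO and AZD7762. TRIB3 was most like ALPL (r = 0.9940), which encodes an alkaline phosphatase, followed by NAALADL1, RPLP2, C1orf109 and PRPF6, whose log2 fold changes lay between 0.00 and 0.06.

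The sequence around the canonical start site, 250 bases to each side, was searched on both strands for 4 motifs in all 3 genes and in the 13576 protein-coding genes tested. The motifs are TGATGNAA, the composite element through which ATF4 and CHOP act, and TGACGTCA, the cAMP response element. The others are TGANTCA, a relaxed form of the AP-1 site bound by FOS and JUN proteins, and TGTTTAC, a core of the forkhead site bound by FOXO proteins. N stands for any base. In the 3 genes, no match to one motif overlapped a match to another. TRIB3 had 3 matches to TGATGNAA, 33 bases apart, which was found for 1 of the 13576 windows, TRIB3 itself, whereas 2.18% held at least 1 match. The 3 copies lie in the untranslated first exon of the canonical transcript, starting 132, 165 and 198 bases after its first base, and are shown because this element ties TRIB3 to the factors measured with it. They are read on the minus strand, 5′ to 3′, with the motif in capitals.

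TRIB3, copy at chr20:361530-361549: tccgggTGATGCAAaccgga
TRIB3, copy at chr20:361563-361582: tccgggTGATGCAAaccgga
TRIB3, copy at chr20:361596-361615: tccgggTGATGCAAaccgga

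The 33 bases around each copy were identical in all 33 positions between the 3 copies in the GRCh37 reference. Neither TRIB1 nor TRIB2 had a match to TGATGNAA, and none of the 3 genes had one to TGACGTCA. TRIB1 and TRIB2 had 1 match each to TGTTTAC, 116 and 249 bases before their starts, and 2.73% of all windows held at least 1. The motifs were chosen with the values and sequences known, so nothing is read from which of the 3 genes hold one. TRIB1 also had 1 match to TGANTCA, 75 bases before its start, as did 5.12% of windows. These are matches of letters in the reference, and binding was not measured. In the 3′ untranslated region, where the pentamer ATTTA is the core of AU-rich elements that shorten the life of a transcript, TRIB2 had 6 copies in 1940 bases, TRIB1 had 1 in 1932 bases and TRIB3 had 0 in 869 bases. At least 6 copies were found in 28.6% of the 13589 canonical coding transcripts of genes tested.

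Genes tied to the Tribbles family were taken from 8 lists with 80 genes in all. The lists hold binding partners, substrates and their pathways, eIF2 kinases and factors, further ATF4 and CHOP target genes, and genes that follow ERK. They are called partner genes here, though not all of them act with a Tribbles protein. Of the 80, 76 passed the filter and were tested in the same edgeR fit. With the threshold of 0.05 on the adjusted p, 2 of them were higher and 4 lower, while 70 were not called. Over all genes, 0.357% were called higher and 0.351% lower. An unadjusted p under 0.05 by edgeR was found for 18 of the 76, and for 1708 of all 17649 genes tested. The median log2 fold change of the 76 was -0.033, against 0.00756 over all genes tested. All 8 lists were chosen with earlier results of these data known, so nothing is read from these comparisons with all genes. STK40, a Tribbles-related pseudokinase that also binds COP1, had 53.5 ± 5.12 CPM for DMSO and 55.4 ± 3.56 CPM for AZD7762 (log2 fold change 0.05, adjusted p = 0.883, edgeR).

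Of the 7 genes of the COP1 ligase, 0 were called by edgeR, where 0.708% of all genes tested were. An unadjusted p under 0.05 was found for 0 of the 7, and for 1708 of all 17649 genes tested. With 7 genes, nothing is read from these counts. COP1, the subunit that the Tribbles tail binds, had 52.2 ± 0.602 CPM for DMSO and 51.9 ± 1.69 CPM for AZD7762 (log2 fold change -0.01, adjusted p = 0.983, edgeR). Its scaffold CUL4A had a log2 fold change of -0.08, the adaptor DDB1 one of 0.07 and DDA1 one of 0.08. The standard errors were 0.0596 for COP1 and 0.0547 for CUL4A on the log2 scale.

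Among the genes of 12 proteins that COP1 or a Tribbles protein is known to bring to degradation or bind, JUN was called by edgeR. The other 11 were not, and 3 of the 12, JUN, CEBPB and FOXO1, had an unadjusted p under 0.05 by edgeR. These values are transcript levels, and the proteins, on which COP1 and the Tribbles proteins act, were not measured. JUN, a subunit of AP-1 and a COP1 substrate, had 203, 203 and 239 CPM in the DMSO samples and 160, 155 and 163 CPM in the AZD7762 samples. Every AZD7762 sample was below every DMSO sample (log2 fold change -0.43, standard error 0.0711, adjusted p = 0.0102, edgeR). JUN was not called without AZD7762 replicate 1 or without AZD7762 replicate 2. CEBPA, whose product is the classical TRIB1 and TRIB2 substrate, had 18.8 ± 2.72 and 16.9 ± 0.517 CPM (log2 fold change -0.16, adjusted p = 0.679, edgeR). For its relative CEBPB the values were 8.24 ± 1.26 and 6.28 ± 0.286 CPM (log2 fold change -0.39, adjusted p = 0.324), and for FOXO1 84.6 ± 8.22 and 71.2 ± 7.92 CPM (log2 fold change -0.25, adjusted p = 0.364), both by edgeR.

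Kinases that Tribbles proteins bind belong to the MAP kinase cascade and the AKT pathway. Over all genes tested 0.708% were called, so nothing is read from lists of this size with 0 called. In the MAP kinase cascade, 0 of 9 genes were called by edgeR and 2, MAPK8 and MAPK3, had an unadjusted p under 0.05. Over all 17649 genes tested, 1708 had such a p. MAP2K1, which encodes MEK1, had 70.3 ± 1.93 CPM for DMSO and 72.6 ± 4.12 CPM for AZD7762 (log2 fold change 0.05, adjusted p = 0.864, edgeR). MAPK8 and MAPK3, which encode JNK1 and ERK1, had log2 fold changes of -0.14 and 0.15, and MAP2K2 one of 0.19. In the AKT pathway, 0 of 14 genes were called by edgeR and 1, PDPK1, had an unadjusted p under 0.05. AKT1 had 400 ± 19.7 CPM and 436 ± 14.8 CPM (log2 fold change 0.12, adjusted p = 0.558, edgeR), and AKT2 58.8 ± 2.79 and 59.8 ± 5.52 CPM (log2 fold change 0.03, adjusted p = 0.939, edgeR). PDPK1, the kinase that activates AKT, and PIK3CA, a catalytic subunit of PI3 kinase, had log2 fold changes of -0.14 and -0.15.

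TRIB3 is a target of ATF4 and CHOP, and these were measured in the same libraries. DDIT3, which encodes CHOP, had 29.0, 28.9 and 31.0 normalized CPM in the DMSO samples and 14.0, 14.7 and 15.9 CPM in the AZD7762 samples. The groups did not overlap (log2 fold change -0.999, standard error 0.0798, adjusted p = 2.09e-05, edgeR). ATF4 had 145 ± 7.53 CPM for DMSO and 141 ± 6.89 CPM for AZD7762 (log2 fold change -0.03, adjusted p = 0.905, edgeR). The DDIT3 transcript thus fell and that of ATF4 was not called, while the means of TRIB3 itself differed by less than its spread between replicates. Of the 11 eIF2 kinases and factors tested, DDIT3 was the 1 called, and 5 had an unadjusted p under 0.05 by edgeR. These were DDIT3, EIF2AK3, ATF3, CEBPG and PPP1R15A, all lower with AZD7762. EIF2AK3, which encodes the kinase PERK, had 30.9 and 25.7 CPM (log2 fold change -0.27, adjusted p = 0.176, edgeR). For ATF3 the difference was -0.42 on the log2 scale, with an adjusted p of 0.222 by edgeR. Of 13 further target genes of ATF4 and CHOP, 0 were called by edgeR, where 0.708% of all genes tested were, so nothing is read from the 0. Of the 13, 1, the cystine transporter gene SLC7A11, had an unadjusted p under 0.05. The log2 fold changes of the 13 ranged from -0.41 for DDIT4 to 0.09, with -0.23 for SLC7A11 and -0.16 for STC2, and a median of -0.05. Of the 13, 9 were lower and 4 higher with AZD7762. CHAC1, an enzyme that degrades glutathione, was among the 4 and had 18.7 ± 0.728 and 19.9 ± 4.51 CPM. It was named after its values were seen.

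**Figure D4:**
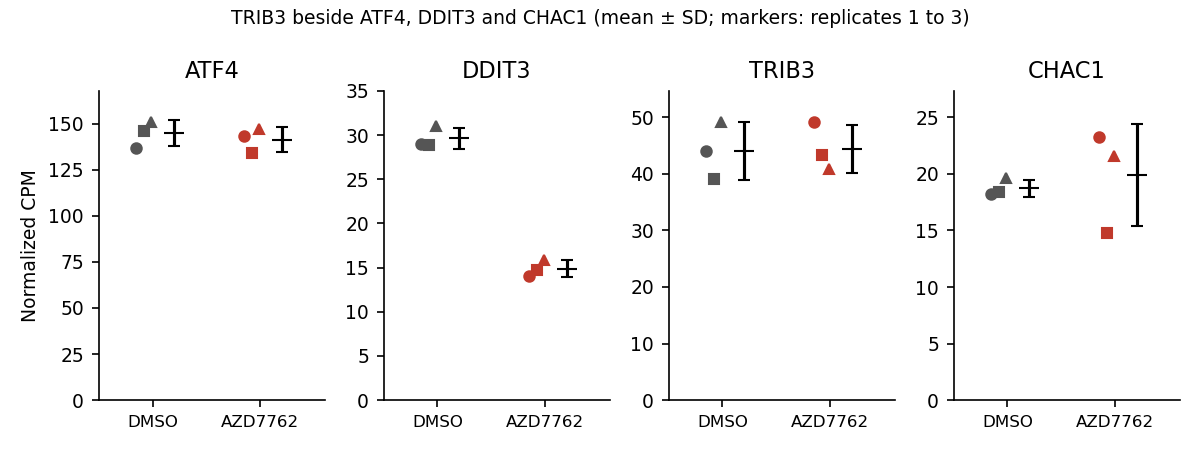
Normalized CPM (vertical axes, from 0) of ATF4, DDIT3, TRIB3 and CHAC1 in the DMSO (grey) and AZD7762 (red) samples, with marker shapes for replicates 1 to 3 and the mean ± SD of each group (n = 3). DDIT3 lies between 28.9 and 31.0 with DMSO and between 14.0 and 15.9 with AZD7762, and the groups overlap for the other 3 genes. CHAC1 is 1 of 13 further target genes, of which 9 were lower and 4, among them CHAC1, higher with AZD7762.

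Genes that follow ERK, the kinase downstream of MEK1, went both ways. Of the 9 tested, 4 were higher and 5 lower with AZD7762, and edgeR called 2 in each direction. An unadjusted p under 0.05 by edgeR was found for 6 of the 9, and for 1708 of all 17649 genes tested. The 6 include DUSP5 and PHLDA1, which were not called and had log2 fold changes of 0.53 and -0.41. DUSP4, a nuclear MAP kinase phosphatase, rose from 68.7 ± 1.19 to 238 ± 28.7 CPM (log2 fold change 1.79, adjusted p = 6.38e-08, edgeR), and the early growth response factor EGR1 from 41.7 ± 10.6 to 86.1 ± 6.65 CPM (log2 fold change 1.04, adjusted p = 0.00151, edgeR). DUSP6, a cytoplasmic phosphatase specific for ERK, fell from 22.3 ± 3.27 to 13.6 ± 0.648 CPM (log2 fold change -0.72, adjusted p = 0.00508, edgeR), and SPRY4, a Sprouty inhibitor of receptor signalling to ERK, from 16.7 ± 0.183 to 8.70 ± 0.373 CPM (log2 fold change -0.94, adjusted p = 7.76e-05, edgeR). DUSP6 was not called without AZD7762 replicate 1. The list was written with these results known, so its share of called genes, 44.4%, is not independent of them.

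**Figure D5:**
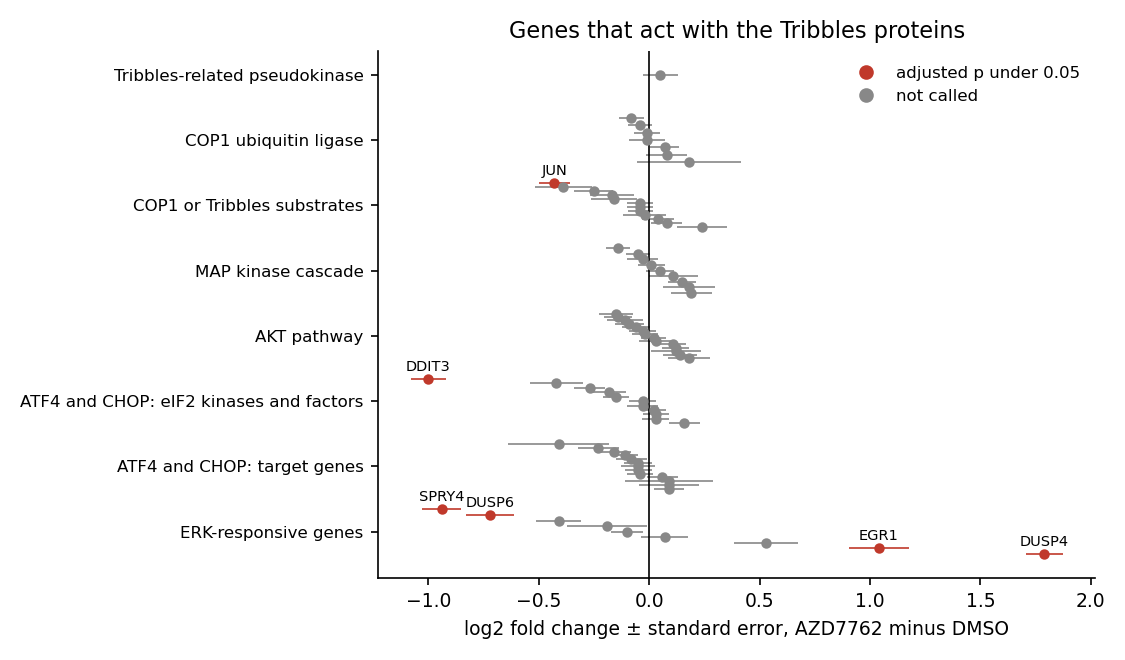
Fitted log2 fold change ± standard error (horizontal axis, AZD7762 minus DMSO) of the 76 partner genes tested, in 8 lists. Not all of these genes act with a Tribbles protein. Genes that edgeR's test called (adjusted p, threshold 0.05) are red and named, and the others are grey. The 6 named genes are DDIT3, SPRY4, DUSP6 and JUN, which were lower, and EGR1 and DUSP4, which were higher.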

How the data were processed

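RNA-seq was performed by the authors on polyadenylated RNA, with either an unstranded or a stranded TruSeq kit (which kit each library had is not given in the sources used here). Reads were checked with FastQC 0.10.1, trimmed with cutadapt 1.18, aligned to GRCh37 (aligner not given in the sources used here) and assigned to genes by HTSeq-count. What the authors deposited is the raw count of each gene, unscaled and unfiltered.

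Samples were grouped by title. Symbols, positions, lengths and sequences came from a GRCh37 annotation of another release, which lists 58646 of 60671 identifiers. The analysis used R 4.3.3 and edgeR 4.0.16. The function filterByExpr left 17649 genes, libraries were scaled by TMM, and treatment was tested with the quasi-likelihood test (two-sided, Benjamini-Hochberg, threshold 0.05). A standard error is the size of a log2 fold change over the root of its F statistic. Alternatives included DESeq2 1.42.0. The fit was tested on simulated counts.

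The genes, lists and motifs were chosen with earlier results of these data, or the sequences, known. Named partner genes are those called, the 3 with the smallest p in lists with fewer calls, and COP1, MAP2K1, AKT1, AKT2, CEBPA, CEBPB, ATF4, DDIT3 and STK40. Likeness used a prior count of 0.5 and names the 5 largest r per gene. CHAC1, MAFA and the other cell type markers were named after their values were seen.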

Additional observations from a re-analysis of the deposited data

How the results depend on the processing

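The log2 fold change of TRIB1 kept its direction under all 12 alternatives, from -0.58 without AZD7762 replicate 1 to -0.47 without AZD7762 replicate 2, and that of TRIB2 from -0.48 with library totals alone to -0.41 without DMSO replicate 1. That of TRIB3 changed sign with library totals alone (-0.02) and, among fits that left out 1 sample, lay between -0.07 and 0.10. The 125 genes called became 330 with no filter on low counts and 378 with a replicate block, and from 77, without AZD7762 replicate 1, to 168, without DMSO replicate 3, when 1 sample was left out. The cause was not tested. The deviations of same-numbered samples from their group means had correlations of 0.0469, 0.114 and 0.194. Between samples of unlike number the correlations ranged from -0.233 to 0.16. The labels name no pairing, so the block rests on numbers alone. The 6 partner genes called numbered between 4 and 8. DDIT3, DUSP4, EGR1 and SPRY4 were called in all 12 alternatives, DUSP6 in 11 and JUN in 10. With the longest transcript as the length, the log2 ratio of TRIB2 to TRIB1 moved from -3.00 to -3.11, that of TRIB2 to TRIB3 from -3.43 to -3.84 and that of TRIB1 to TRIB3 from -0.44 to -0.73, with TRIB3 then above TRIB1 in all 3 DMSO samples. Without 1 sample these ratios stayed between -3.03 and -2.98, between -3.51 and -3.35 and between -0.54 and -0.37. The counts of TRIB2, from 103 to 204, limit what can be said of its spread.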
